A study of Mus musculus with 6 samples.

Results

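The p53 target genes described here are Trp53, which codes for the transcription factor p53, and 9 of its well-known targets: Cdkn1a, Mdm2, Ccng1, Bax, Bbc3, Phlda3, Sesn1, Sesn2 and Trp53inp1. They were chosen by name, as canonical genes of cell cycle arrest and cell death, with earlier results of these libraries known. Each was found among the 55335 genes of the deposited count files. All 10 passed the filter on low counts, as did 18870 genes in all. The samples were bulk RNA of the substantia nigra, a midbrain region known for its dopaminergic neurons, from C57 mice. There were 3 libraries with the genotype label WT and 3 with the label shDNAJB1, which names a short hairpin RNA against Dnajb1, the gene of an HSP40 co-chaperone. The comparison is between libraries with these 2 labels, and no fall of Dnajb1 itself was detected in those labelled shDNAJB1 (values further on). The labels give no age, vector, route or time for the hairpin, do not say whether the WT mice received a control hairpin, and do not say whether the libraries came from separate animals. The p-values therefore measure only the spread between these libraries, which may be technical.

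p53 is held at a low level by Mdm2, the ubiquitin ligase that marks it for breakdown and is itself a p53 target, so that the pair forms a feedback loop. DNA damage and other stresses free p53 from Mdm2, and p53 then binds response elements near its target genes. Some targets stop the cell cycle, above all Cdkn1a, which codes for the kinase inhibitor p21. Others promote death through the mitochondria, such as Bax and Bbc3, and others act on metabolism and autophagy, such as the sestrins and Trp53inp1. In post-mitotic brain cells p53 is known for its part in neuronal death, and Cdkn1a is widely used as a marker of senescence in ageing tissue. Much of the control of p53 acts on the protein, which RNA counts do not measure.

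The promoter of Cdkn1a is shown because Cdkn1a was the member with the largest difference between the groups, and because 1 of its starts lies beside a p53 element. RefSeq sequences of GRCm38.p6, the assembly that is also called mm10, were given for 250 bases before to 50 bases after a transcription start, and 9 of the 10 members had such a window. The p53 response element was searched on both strands as a pair of its decamer half-sites, 0 to 13 bases apart. At most 2 mismatches were allowed over the pair, and the core C and G of each decamer had to be intact. Overlapping matches were allowed. Such a pair was in 4.09% of the 32817 windows of all genes and in 4 of the 13 windows of the members. A decamer without mismatch was in 8.36% of all windows and in 6 of the 13. Among the further p53 targets listed later on, a pair was in 5 of 46 windows and a decamer without mismatch in 12 of 46. Cdkn1a has 2 starts 2790 bases apart, and the 250 bases before each are printed with every matching decamer in capitals.
Cdkn1a, upstream start, chr17:29090729-29090978, plus strand: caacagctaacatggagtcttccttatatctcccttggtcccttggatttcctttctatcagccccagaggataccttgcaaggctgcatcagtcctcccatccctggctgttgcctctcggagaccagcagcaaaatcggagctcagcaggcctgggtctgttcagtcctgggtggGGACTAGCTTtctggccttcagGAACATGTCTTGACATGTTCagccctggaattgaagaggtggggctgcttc
Cdkn1a, downstream start, chr17:29093519-29093768, plus strand: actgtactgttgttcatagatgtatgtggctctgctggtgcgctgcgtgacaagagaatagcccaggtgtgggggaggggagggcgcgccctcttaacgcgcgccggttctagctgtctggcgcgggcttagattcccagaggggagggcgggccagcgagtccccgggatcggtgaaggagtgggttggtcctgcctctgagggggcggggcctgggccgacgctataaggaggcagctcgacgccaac
The window of the upstream start holds 2 overlapping pairs. A pair of adjacent decamers begins 51 bases before the start with 1 mismatch, and a pair with a spacer of 12 bases and 0 mismatches begins 73 bases before it. The window of the downstream start holds no pair.

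For comparison, the matches of Ccng1, Bax and Sesn1 are printed with 10 flanking bases on each side, the decamers in capitals and any spacer in lower case. Where matches overlapped, the pair with the fewest mismatches and then the shortest spacer is shown.
Ccng1, chr11:40755452-40755491, minus strand: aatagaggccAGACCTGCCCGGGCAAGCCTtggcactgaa
Bax, chr7:45467069-45467109, minus strand: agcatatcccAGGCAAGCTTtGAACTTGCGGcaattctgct
Sesn1, chr10:41887243-41887285, plus strand: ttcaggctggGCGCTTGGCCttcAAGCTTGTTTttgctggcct
The pair of Ccng1 had 1 mismatch, and those of Bax and Sesn1 had 2 each. Sesn1 has 2 starts 76865 bases apart, and the pair shown is that of the downstream start. The window of its upstream start held no pair and no decamer without mismatch. The windows of Trp53 and Mdm2 held 1 decamer without mismatch but no pair, and those of Bbc3, Phlda3 and Sesn2 held neither. These matches describe letters in short windows and are not binding data. The known p53 element of Mdm2, for example, lies in its first intron, outside the window.

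Cdkn1a stood higher in the libraries labelled shDNAJB1, at 1.61 times the WT level, but it did not pass the test over all genes. It codes for p21, which binds and blocks cyclin-dependent kinases (ENSMUSG00000023067, chromosome 17, 29090976 to 29100727 of mm10, plus strand). Its level was 11.99, 10.01 and 10.2 CPM, counts scaled to a common library size, in WT 1, 2 and 3. It was 18.3, 14.7 and 18.7 CPM in shDNAJB1 1, 2 and 3. The lowest library labelled shDNAJB1 thus stood above the highest WT library, and the groups did not overlap. The counts behind these levels were 437, 289 and 308 in WT and 452, 411 and 731 in shDNAJB1. The mean was 10.7 CPM in WT, with an SD of 1.08 (n = 3), and 17.3 CPM in shDNAJB1, with an SD of 2.20 (n = 3). The log2 difference was 0.68 (SE 0.16), with a 95% interval from 0.32 to 1.05, which is 1.25 to 2.07 times the WT level. Its unadjusted p was 0.00253 by edgeR's quasi-likelihood test, place 51 of the 18870 genes, and its adjusted p was 0.765. A two-sided exact permutation test over the 6 libraries gave p = 0.1, the smallest value that 3 against 3 can give. DESeq2's Wald test gave an adjusted p of 0.163. On leaving out 1 library at a time the log2 difference ran from 0.62 to 0.79, with edgeR adjusted p from 0.2502, without shDNAJB1 1, to 0.999.

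**Figure D1:**
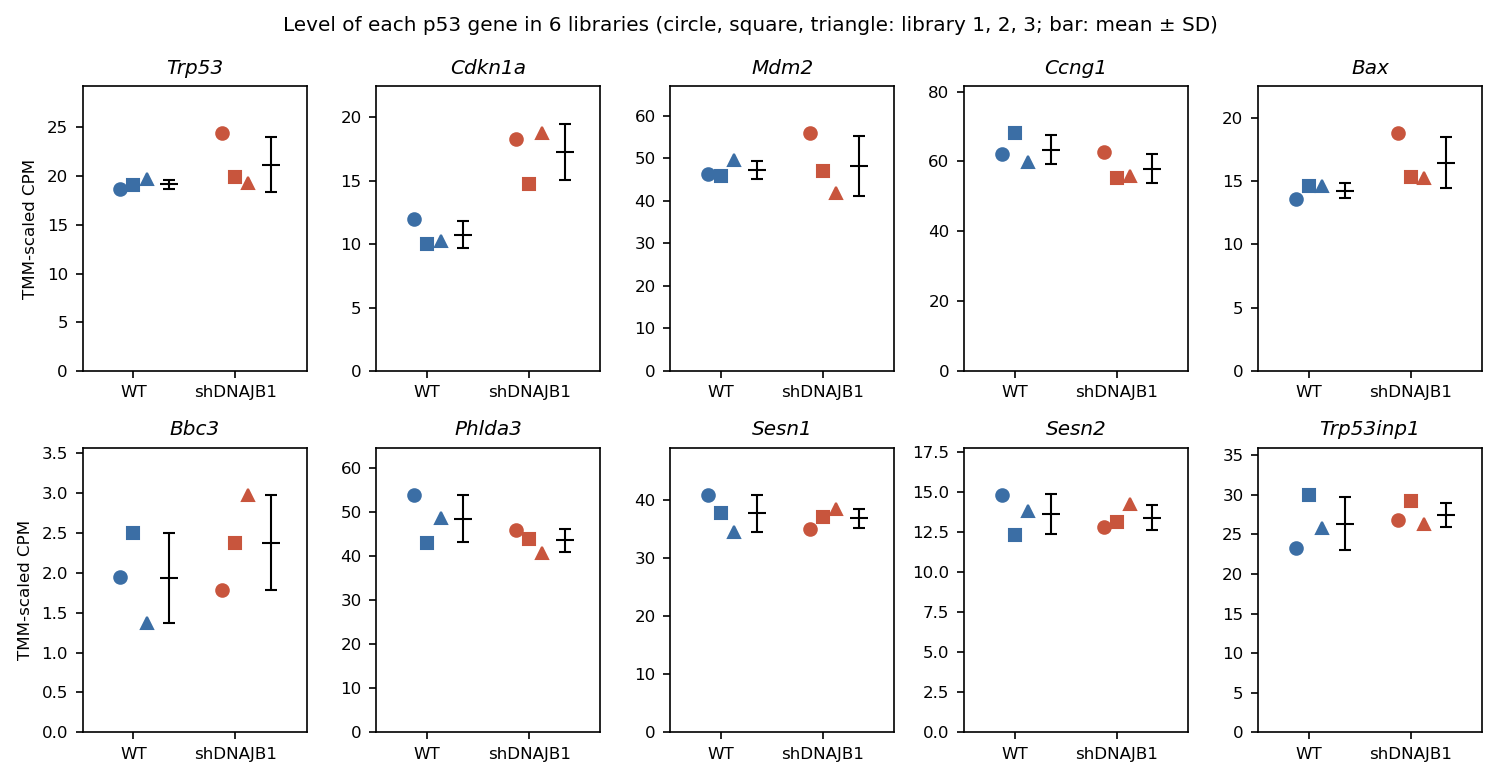
TMM-scaled CPM (vertical axes, from 0) of the 10 genes in the WT (blue) and shDNAJB1 (red) libraries, with 1 symbol per library and the mean ± SD of each group. The groups are apart for Cdkn1a and Bax and overlap for the other 8 genes.

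None of the 10 genes had an edgeR adjusted p under 0.05 (0 of 10, and 0% of all tested genes). Cdkn1a was the only one with an unadjusted p under 0.05, against 6.37% of all tested genes. Cdkn1a and Bax were the 2 members whose groups did not overlap, both higher in the libraries labelled shDNAJB1, against 6.98% of all tested genes that were separate in that direction. Fitted values were higher for 6 members and lower for 4, and 50.8% of all tested genes were higher. The members' median log2 difference was 0.04, beside a median of 0.01 over all tested genes. DESeq2's Wald test called 0 members and 0.164% of the genes it adjusted, and limma-voom called 0 members and 0% of all genes.

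The gene of p53 itself showed no difference that could be told from the spread between libraries. Trp53 (ENSMUSG00000059552, chromosome 11, 69580359 to 69591873, plus strand) was at 18.7, 19.05 and 19.7 CPM in WT 1, 2 and 3 and at 24.4, 19.9 and 19.3 CPM in shDNAJB1 1, 2 and 3. Only shDNAJB1 1 stood above the WT range by more than 1 CPM, and shDNAJB1 3 lay within it. The log2 difference was 0.14 (SE 0.13, 95% interval -0.17 to 0.46), with an edgeR adjusted p = 0.846. Leaving out shDNAJB1 1 brought it to 0.03. The processed pseudogene Trp53-ps had 0 to 3 counts per library, against 550 to 752 counts for Trp53.

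Cdkn1a and Trp53 were not in a fixed ratio. The Cdkn1a level divided by the Trp53 level was 0.641, 0.525 and 0.521 in WT 1, 2 and 3 and 0.752, 0.742 and 0.972 in shDNAJB1 1, 2 and 3. The ratio was thus higher in each library labelled shDNAJB1 than in any WT library, as the Cdkn1a level itself was. The summed level of the other 9 members was 268 to 275.5 CPM in WT and 255 to 284 CPM in shDNAJB1, and these ranges overlapped. That sum is dominated by the most abundant members, Ccng1, Mdm2 and Phlda3.

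**Figure D2:**
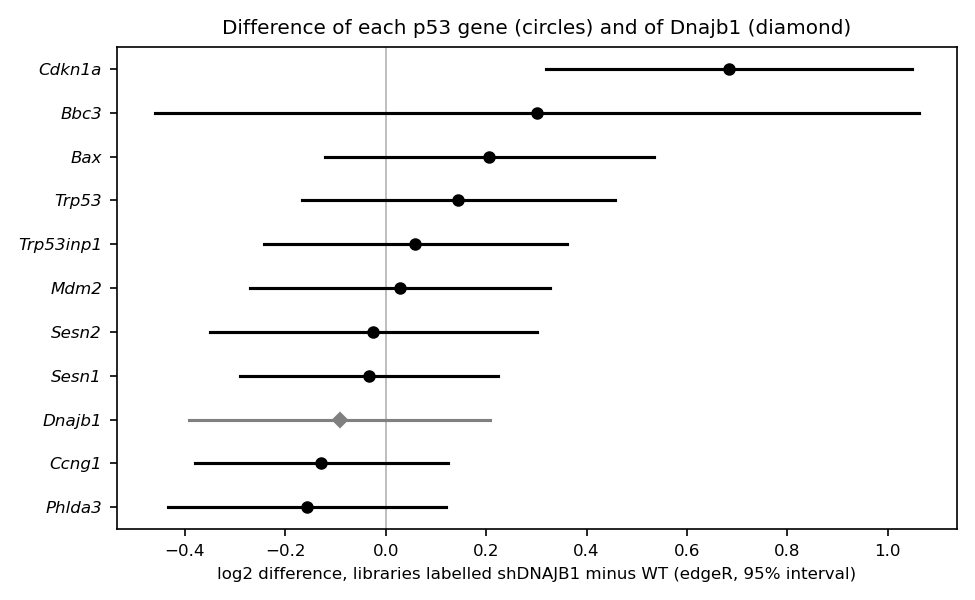
Log2 difference (horizontal axis) of each p53 gene between libraries labelled shDNAJB1 and WT, with the 95% interval of edgeR's quasi-likelihood fit as a line. Cdkn1a is the only circle whose unadjusted interval, 0.32 to 1.05, does not cross 0, and the interval of Dnajb1 (diamond) runs from -0.39 to 0.21.

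The death genes Bax and Bbc3 did not pass. Bax, the BCL-2 family protein that opens the outer mitochondrial membrane (ENSMUSG00000003873, chromosome 7, 45461697 to 45466898, minus strand), was at 13.6, 14.6 and 14.6 CPM in WT 1, 2 and 3. It was at 18.8, 15.4 and 15.3 CPM in shDNAJB1 1, 2 and 3. The groups did not overlap, but shDNAJB1 2 and 3 lay within 1 CPM of WT 2 and 3, and shDNAJB1 1 carried most of the difference. The log2 difference was 0.21 (SE 0.14, 95% interval -0.12 to 0.53), with an edgeR adjusted p = 0.808, and it was 0.10 without shDNAJB1 1. Exons of Bax share 192 bases with the same-strand gene Gm45808, which had 0 to 4 counts per library.

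Bbc3 codes for PUMA, a BH3-only protein that activates BAX (ENSMUSG00000002083, chromosome 7, 16308393 to 16318205, plus strand), and was the scarcest member. It was at 1.95, 2.49 and 1.36 CPM in WT and 1.78, 2.37 and 2.97 CPM in shDNAJB1, with groups that overlapped. Only 41 to 116 counts per library lay behind these levels, so the counting error alone was 9.28% to 15.6%. Its log2 difference of 0.30 (SE 0.33) had a 95% interval from -0.46 to 1.06, the widest of the 10, and an edgeR adjusted p = 0.866. A difference of the size seen for Cdkn1a would lie inside that interval. On leaving out 1 library at a time the Bbc3 difference ran from 0.10, without shDNAJB1 3, to 0.52, without WT 2; it was 0.11 without WT 3 and 0.47 without shDNAJB1 1.

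The feedback genes Mdm2 and Ccng1 stayed close to the WT level. Mdm2 (ENSMUSG00000020184, chromosome 10, 117688875 to 117710758, minus strand) was at 46.4, 45.8 and 49.6 CPM in WT 1, 2 and 3 and at 55.8, 47.0 and 41.9 CPM in shDNAJB1 1, 2 and 3. The highest and the lowest of the 6 libraries thus both carried the shDNAJB1 label. The log2 difference was 0.03 (SE 0.13), with an interval of 0.829 to 1.25 times the WT level and an edgeR adjusted p = 0.979. Without shDNAJB1 1 it was -0.09. Ccng1, the gene of cyclin G1, which acts with a phosphatase on MDM2 (ENSMUSG00000020326, chromosome 11, 40748552 to 40755311, minus strand), was at 62.0, 68.0 and 60.0 CPM in WT and 62.8, 55.3 and 55.7 CPM in shDNAJB1. The groups overlapped through shDNAJB1 1. Its log2 difference was -0.13 (SE 0.11), with an edgeR adjusted p = 0.834, and ran from -0.19 to -0.08 on leaving out 1 library at a time, the latter without WT 2.

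Phlda3, the gene of a pleckstrin homology protein that restrains AKT (ENSMUSG00000041801, chromosome 1, 135766119 to 135769136, plus strand), was at 53.9, 43.1 and 48.6 CPM in WT and 46.0, 44.0 and 40.9 CPM in shDNAJB1. The groups overlapped, with a log2 difference of -0.16 (SE 0.12) and an edgeR adjusted p = 0.821. It was -0.07 without WT 1 and -0.24 without WT 2. Phlda3 thus lay on the opposite side of 0 from Cdkn1a. The 95% interval ended at 1.09 times the WT level for both Phlda3 and Ccng1, below the lower bound of 1.25 for Cdkn1a.

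The sestrins, which are stress-induced proteins that restrain mTORC1 through the GATOR complexes, varied little. Sesn1 (ENSMUSG00000038332, chromosome 10, 41809935 to 41908424, plus strand) was at 40.8, 37.8 and 34.4 CPM in WT and 35.04, 37.1 and 38.3 CPM in shDNAJB1. Its highest library was 1.19 times its lowest, the narrowest range of the 10 members, and the groups overlapped. Sesn2 (ENSMUSG00000028893, chromosome 4, 132492032 to 132510501, minus strand) was at 14.8, 12.3 and 13.8 CPM in WT and 12.8, 13.1 and 14.3 CPM in shDNAJB1. The shDNAJB1 values lay inside the WT range. The log2 differences were -0.03 (SE 0.11) for Sesn1 and -0.02 (SE 0.14) for Sesn2, with edgeR adjusted p of 0.966 and 0.985. Their 95% intervals of 0.818 to 1.17 and 0.785 to 1.23 times the WT level end below the lower bound of Cdkn1a. The intervals of Trp53, Mdm2, Bax, Bbc3 and Trp53inp1 reached above that bound. Cdkn1a was singled out as the largest difference of the 10, so these comparisons of intervals are not tests between genes.

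Trp53inp1 codes for a stress protein that acts in autophagy and in p53 phosphorylation (ENSMUSG00000028211, chromosome 4, 11156431 to 11174379, plus strand). It was at 23.3, 29.99 and 25.9 CPM in WT and 26.9, 29.2 and 26.3 CPM in shDNAJB1. Again the shDNAJB1 values lay inside the WT range, with a log2 difference of 0.06 (SE 0.13) and an edgeR adjusted p = 0.944.

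Per length, Phlda3 was the most abundant member and Bbc3 the least. On the scale of CPM per kilobase of exon, Phlda3 was at 31.1 ± 3.47 (SD, n = 3) in WT and Ccng1 at 18.0 ± 1.19. Sesn1, Mdm2 and Bax followed at 9.47, 9.30 and 9.05, and their ranges over the 6 libraries overlapped, so their order is not resolved. Trp53 was at 4.73, Trp53inp1 at 4.07, Sesn2 at 3.93 and Cdkn1a at 3.03. Over the 6 libraries each of these overlapped in range with its neighbour in the order. Cdkn1a and Sesn2 did so only through the libraries labelled shDNAJB1, and their WT ranges were apart. Bbc3 was at 0.911 CPM per kilobase, apart from all others. In the libraries labelled shDNAJB1 the order was the same at both ends, and Cdkn1a, at 4.86 ± 0.618, stood in place 7 instead of place 9. Cdkn1b, the gene of the related inhibitor p27, was at 14.4 CPM per kilobase in WT. Cdkn1a was at 0.226, 0.185 and 0.219 of the Cdkn1b level per length in WT 1, 2 and 3 and at 0.425, 0.260 and 0.326 of it in shDNAJB1 1, 2 and 3.

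**Figure D3:**
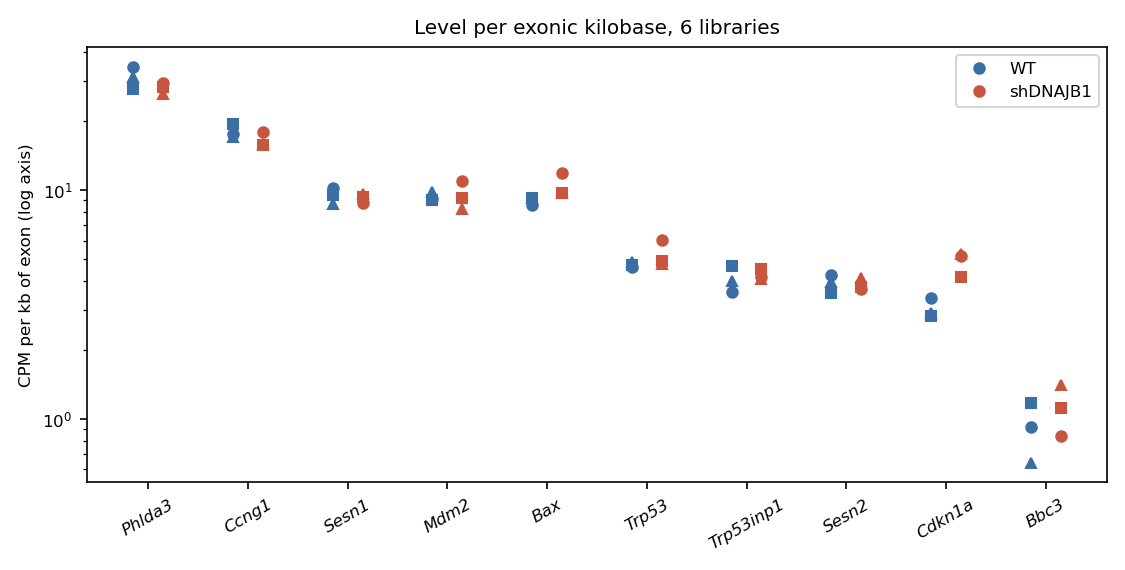
Level of each p53 gene per kilobase of exon (vertical log axis) in WT (blue) and shDNAJB1 (red) libraries, in the order of the WT means and with 1 symbol per library. Phlda3 and Ccng1 stand above the rest and Bbc3 below them, and the shDNAJB1 values of Cdkn1a lie above its WT values.

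The members did not share 1 profile over the libraries. Likeness was measured as the root mean square difference between log2 CPM profiles over the 6 libraries, each centred on its own mean. Trp53 and Bax were the closest pair, at 0.04, followed by Trp53 and Mdm2 at 0.07. All 3 had their highest level in shDNAJB1 1. Cdkn1a was farther from its nearest member, Bax, at 0.29. It lay farther below its own mean than Bax did in WT 2 and WT 3, and farther above it in shDNAJB1 3, where Mdm2 was lowest. Sesn1 and Sesn2 were at 0.09 from each other, but also at only 0.08 and 0.09 from a flat profile, so this value shows no likeness between them. Over the 6 libraries WT 1 was highest for Phlda3, Sesn1 and Sesn2 and lowest for Trp53, Bax and Trp53inp1.

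**Figure D4:**
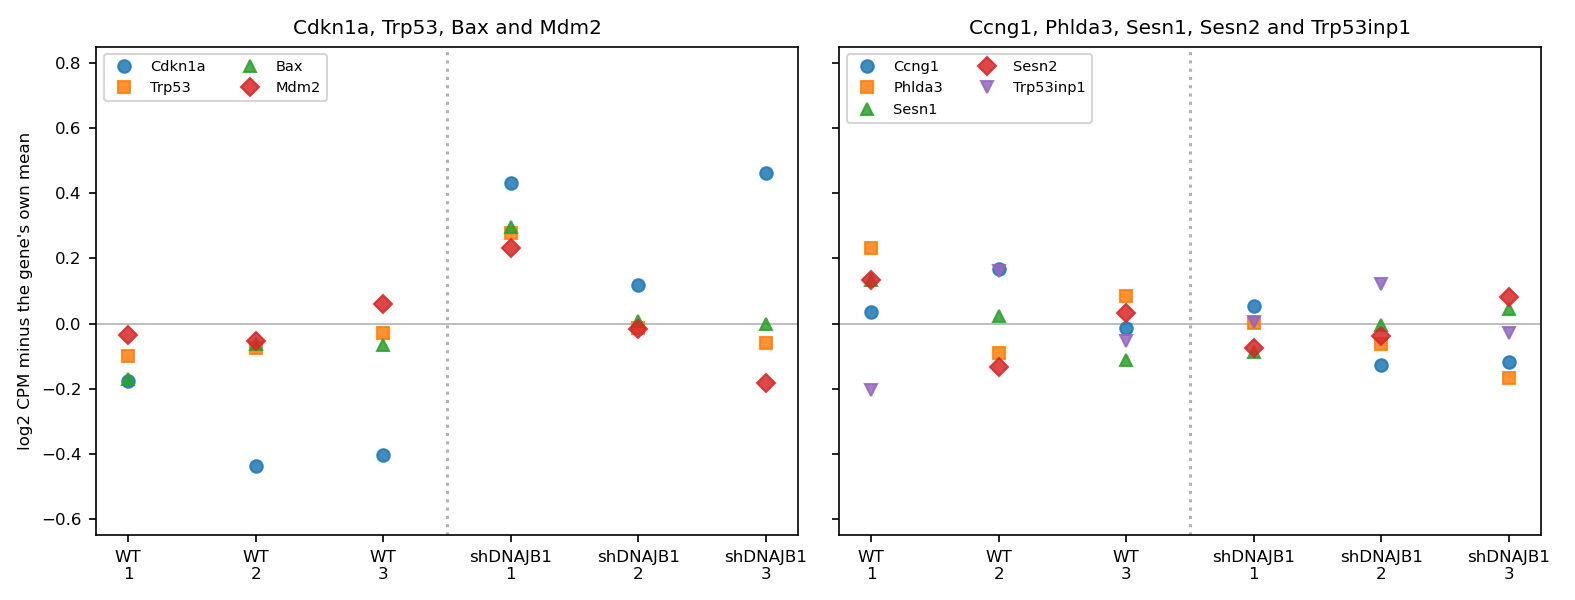
Log2 CPM of 9 p53 genes in each library, minus the gene's own mean over the 6 libraries (vertical axis). Cdkn1a is below its mean in all 3 WT libraries and above it in all 3 libraries labelled shDNAJB1, while Trp53, Bax and Mdm2 have their highest value in shDNAJB1 1.

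Candidates for a like profile were the 11593 tested genes that averaged 5 CPM or more, without clone or predicted-gene names. The 5 with the profile most like that of Cdkn1a were Rara, Tmed1, Rab34, Ccdc74a and Adck5. Rara, the gene of retinoic acid receptor alpha, was the closest at 0.16, where a flat profile would be at 0.37. It was at 6.04, 5.58 and 5.22 CPM in WT and 7.62, 7.28 and 7.66 CPM in shDNAJB1. The other 4 were at 0.18 each. Of the members, Bax was at place 454 and Trp53 at place 855 of this order, at 0.29 and 0.31 against 0.37 for a flat profile. The other members among the candidates ran from place 2848 for Sesn2 to place 6845 for Phlda3.

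Other listed p53 targets did not move together in 1 direction. Of the 44 further targets, 42 passed the filter, with 17 higher and 25 lower, a median log2 difference of -0.04 (0.03 without WT 1), and 0 past an adjusted p of 0.05 by edgeR. At an unadjusted p under 0.05 there were 2 higher, against 3.04% of all tested genes, and 4 lower, against 3.33%. Groups were apart and lower for 4 of the 42, against 7.06% of all tested genes, and apart and higher for 2, Perp and the DNA damage recognition gene Xpc, against 6.98%. Xpc was at 15.4, 20.98 and 19.1 CPM in WT and 21.09, 21.6 and 21.2 CPM in shDNAJB1. The 2 higher were Perp, a desmosomal membrane protein gene tied to apoptosis, and Rprm, the gene of reprimo, an inhibitor of the G2 to M step. Perp was at 3.43, 4.02 and 3.86 CPM in WT and 6.61, 5.78 and 5.204 CPM in shDNAJB1, without overlap and with a log2 difference of 0.64 (SE 0.20). Rprm was at 13.04, 5.37 and 8.92 CPM in WT and 5.07, 26.9 and 74.2 CPM in shDNAJB1, so the labelled group held both the lowest and the highest library. In the main fit its log2 difference was 1.96 (SE 0.79), and it did not pass, with adjusted p = 0.765 by edgeR. Rprm passed only in the fit with an endothelial covariate described below, at 2.20 (SE 0.20) and adjusted p = 0.0481 by edgeR. That covariate was added once the data had been seen, and 4 of the 18870 genes passed with it.

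The 4 lower targets were Pmaip1, Zmat3, Ephx1 and Lpin1, and the groups of each were apart. Pmaip1 codes for NOXA, a BH3-only death protein like PUMA, and was at 4.53, 3.84 and 5.29 CPM in WT and 3.08, 3.09 and 2.49 CPM in shDNAJB1, a log2 difference of -0.66 (SE 0.23). Zmat3, the gene of an RNA-binding zinc finger protein, was at 127 ± 8.93 and 105 ± 5.27 CPM (SD, n = 3 each). Ephx1, the gene of microsomal epoxide hydrolase, was at 26.6 ± 1.32 and 18.8 ± 4.30 CPM, and Lpin1, the gene of the phosphatidate phosphatase lipin 1, at 76.9 ± 6.40 and 62.6 ± 1.08 CPM. Each of these 6 genes had an edgeR adjusted p = 0.765. By role, the arrest group had 4 of 9 tested members higher, with a median log2 difference of -0.02. The death group had 8 of 14 higher (0.08), the repair group 3 of 5 (0.05), the feedback group 1 of 3 (-0.03) and the group of metabolic and secreted targets 1 of 11 (-0.05). On leaving out 1 library at a time the median changed sign in the arrest, death and feedback groups. It ran from 0.02, without shDNAJB1 2, to 0.09 in the repair group, and from -0.17, without WT 2, to -0.004, without shDNAJB1 2, in the metabolic group. The metabolic and secreted target with a higher value was Thbs1, the gene of thrombospondin 1, with a log2 difference of 0.59 (SE 0.31). Gtse1 and Gdf15, with 65 and 2 counts over all libraries, did not pass the filter.

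**Figure D5:**
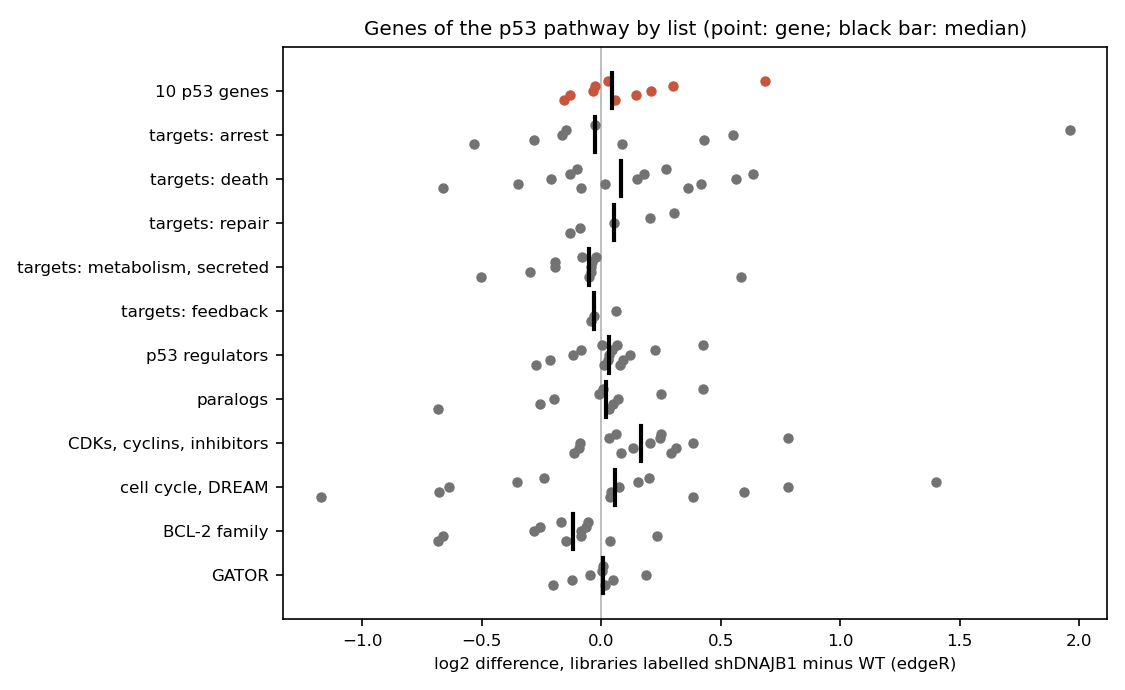
Log2 difference between libraries labelled shDNAJB1 and WT (horizontal axis) of each tested gene in 12 lists around p53, 1 point per gene, with the list median as a black bar. The medians lie between -0.12 for the BCL-2 family and 0.17 for the list of kinases, cyclins and inhibitors, and Rprm, at 1.96, is the point farthest to the right.

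Regulators of p53 were close to 0, with 11 of 15 tested members higher and a median log2 difference of 0.03, which was -0.03 without WT 1 and 0.15 without WT 2. Mdm4, the MDM2 relative that blocks p53 activity, was at 82.0, 181 and 172 CPM in WT 1, 2 and 3 and 216.5, 192 and 177 CPM in shDNAJB1, so that WT 1 alone was low. This was not particular to Mdm4. WT 1 was also the lowest library for other regulators, among them Atm and Atr, but not for Usp7 or Trp53bp1. Crebbp, a histone acetyltransferase that is a p53 coactivator, was at 55.6 ± 2.24 and 65.04 ± 2.22 CPM. Of the 15 tested regulators, 0 had an unadjusted p under 0.05 by edgeR, against 6.37% of all tested genes. Groups were separate and higher for 1 of them, against 6.98% of all tested genes. Cdkn2a, whose ARF product inhibits MDM2, had 0 counts in all 6 libraries. Of the paralogs of the members, 10 of 12 passed the filter and 0 had an unadjusted p under 0.05, against 6.37% of all tested genes. Groups were separate and lower for 1 of these 10, Bak1, against 7.06% of all tested genes. Bak1, which opens the mitochondrial membrane as Bax does, was at 12.4, 12.5 and 12.5 CPM in WT and 10.46, 11.1 and 9.84 CPM in shDNAJB1, without overlap and opposite in direction to Bax.

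Lists of the cell cycle, of apoptosis and of mTORC1 control around p21, Bax and the sestrins held 0 genes that passed an adjusted p of 0.05 by edgeR. Among kinases, cyclins and other inhibitors, 11 of 14 tested members were higher (median log2 difference 0.17, and 0.01 without shDNAJB1 1). Of these 14, 1 had an unadjusted p under 0.05 by edgeR, against 3.04% of all tested genes that were higher at that level. It was the cyclin A2 gene Ccna2, with 1.65, 2.56 and 2.06 CPM in WT and 4.99, 3.34 and 2.49 CPM in shDNAJB1. The cell cycle genes repressed by the DREAM complex, through which p21 lowers their transcription, were scarce: 14 of 18 passed the filter, 9 of them higher and 5 lower (median 0.06, and -0.08 without shDNAJB1 1). Top2a, the topoisomerase gene of dividing cells, was at 0.0718 to 0.658 CPM in every library. In the BCL-2 family without Bax and Bbc3, 10 of 12 tested members were lower (median -0.12). Pmaip1 was the only one with an unadjusted p under 0.05, against 3.33% of all tested genes that were lower at that level. Groups were separate and lower for 3, Pmaip1 and Bak1 among them, against 7.06% of all tested genes. The level of Bax divided by that of the anti-apoptotic Bcl2 was 0.408, 0.410 and 0.453 in WT and 0.783, 0.468 and 0.460 in shDNAJB1, high in shDNAJB1 1 and close to WT 3 in the other two. Divided by the level of Bcl2l1, of the same family, Bax was at 0.137, 0.177 and 0.187 in WT and 0.214, 0.180 and 0.1995 in shDNAJB1, and these groups overlapped. Of the GATOR genes, on which the sestrins act, 5 of 8 were higher (median 0.01), with 0 at an unadjusted p under 0.05, against 6.37% of all tested genes.

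Cdkn1a is also known as a target of the glucocorticoid receptor. The list of 19 glucocorticoid-responsive genes, which includes Cdkn1a, had 13 members higher and a median log2 difference of 0.14, which was 0.25 without WT 1 and 0.06 without shDNAJB1 1. Separate and higher groups were seen for 5, namely Plin4, Cdkn1a, Map3k6, Lcn2 and Fkbp5, against 6.98% of all tested genes. Separate and lower groups were seen for 2, Klf9 and Pdk4, against 7.06%. Plin4, the gene of the lipid droplet protein perilipin 4, was at 18.5, 31.5 and 28.8 CPM in WT and 65.4, 71.02 and 59.2 CPM in shDNAJB1. Map3k6, a stress kinase gene, was at 3.02, 4.33 and 3.73 CPM in WT and 10.1, 5.42 and 6.97 CPM in shDNAJB1. Fkbp5, the co-chaperone gene that is a standard readout of the receptor, was at 27.4, 28.0 and 27.3 CPM in WT and 28.8, 30.5 and 28.6 CPM in shDNAJB1, a log2 difference of 0.09 (SE 0.10). By edgeR, 0 of the 19 passed an adjusted p of 0.05, while DESeq2's Wald test called 1, Plin4. This list, like the members and the other lists, was drawn up with earlier results of these libraries known, so its direction is not independent evidence.

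No fall of the targeted gene was detected. Dnajb1 averaged 52.999 CPM with an SD of 6.37 in WT and 49.7 CPM with an SD of 4.71 in shDNAJB1 (n = 3 each), with a log2 difference of -0.09 (SE 0.13) and an edgeR adjusted p = 0.909. Every direction above therefore refers to the label. Library totals were 24541386 to 38468363 counts.

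Levels of cell type markers differed between the libraries. In bulk tissue, fewer cells of a type and less RNA per cell cannot be told apart. The 13 oligodendrocyte markers were lower in 13 of 13 cases, 9 of them with separate groups, against 7.06% of all tested genes. Their median log2 difference was -0.52, and -0.35 without shDNAJB1 3, and their summed level was 15823 to 17022 CPM in WT and 9238 to 16574 CPM in shDNAJB1. With the mean log2 level of these markers as a covariate, which was added once the data had been seen, the Cdkn1a difference was 0.64 (SE 0.25), with an unadjusted p of 0.0359 and an edgeR adjusted p of 0.845. The 10 endothelial markers were higher in 9 of 10 cases, with a median log2 difference of 0.17 that turned to -0.08 without shDNAJB1 1. Their summed level was highest in shDNAJB1 1, at 827 CPM, against 497 to 589 CPM in the other 5 libraries, and shDNAJB1 1 was also the library with the highest Trp53, Mdm2 and Bax. With the endothelial mean in the model the log2 difference was 0.68 (SE 0.16) for Cdkn1a, 0.06 for Trp53, 0.13 for Bax and -0.07 for Mdm2. The 10 GABAergic markers summed to 319 CPM in shDNAJB1 3 and to 807 to 1803 CPM in the other libraries. The 12 dopaminergic markers, present in all 6 libraries, summed to 1535 to 3926 CPM in WT and 1187 to 2876 CPM in shDNAJB1. The 10 glutamatergic and thalamic markers had the median farthest from 0 of the marker lists, at -0.75 with 8 of 10 lower, and it was 0.004 without WT 1. Their summed level was 520 to 1054 CPM in WT and 360 to 917 CPM in shDNAJB1. The blood cell median was -0.42, and -0.05 without WT 1. The median of mural and fibroblast markers was 0.22, and -0.07 without shDNAJB1 1, the library with their highest summed level. The part of any cell type in the Cdkn1a difference was not tested. The oligodendrocyte and endothelial covariate fits, on 6 libraries, cannot separate a marker level from the label. Summed levels of the 12 microglia markers were 320 to 594 CPM in WT and 217 to 636 CPM in shDNAJB1, and those of the 12 astrocyte markers were 4100 to 5466 CPM and 3672 to 4579 CPM.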

How the data were processed

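Per the labels' protocols, Trizol was used for RNA and a stranded TruSeq kit for the libraries. The authors deposited unnormalized counts for each Ensembl gene, in 1 file per library. The submitters' processing notes name mm10 and the tools STAR 2.5.3a, DESeq 1.16.1, FastQC 0.11.5 and Cuffnorm. The counting tool, its annotation and its strand setting were not given in the sources used here. GENCODE M21 symbols matched 55154 of 55335 identifiers. Exons of Cdkn1a share 273 bases with an opposite-strand gene that had 3 to 18 counts per library.

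The filterByExpr function kept 18870 genes (settings: count of 10, total of 15). TMM factors scaled the libraries, and edgeR 4.0.16 (R 4.3.3) fitted the 2 groups by quasi-likelihood. P-values were adjusted by Benjamini-Hochberg over all kept genes, with 0.05 as the threshold. The SE is the log2 difference divided by the square root of F, and intervals are 95% from the fit. Profiles used log2 CPM with a prior count of 2. Counting error per library was 2.10% to 15.6% for the members and the biological coefficient of variation 24.1%. No 2 libraries agreed within sampling noise. The procedure was tested on simulated data.

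The members and 24 gene lists were chosen with earlier results of these data known. Named were the members, Dnajb1, up to 4 genes per list with the smallest unadjusted p, those that make up a count of 5 or fewer, and the 5 genes most like Cdkn1a. Cdkn1b, Bcl2, Bcl2l1, Spp1, Grm2, C1ql2, Atm, Atr, Usp7 and Trp53bp1 were named after their values were seen. Tried as alternatives were scaling by upper quartile or by the size factors of DESeq2, omitting the filter, a strict filter (at least 1 CPM in 3 libraries with an average of 5), leaving out libraries, a replicate block, DESeq2 1.42.0 and limma-voom 3.58.1, and 2 covariates added after seeing the data. Figures used matplotlib 3.10.9.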

Additional observations from a re-analysis of the deposited data

How the results depend on the processing

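Cdkn1a was positive in 16 of 16 alternatives, with log2 differences of 0.62 to 0.79 and adjusted p of 0.163 to 0.999, and 0 of the 10 members passed in any of them. The Cdkn1a groups did not overlap and every alternative reused these libraries. Its sign could therefore hardly turn, and the 16 of 16 is not independent support. Leaving out 1 library at a time gave 0.621 to 0.7936 for Cdkn1a, -0.1702 to 0.01101 for Dnajb1, with the sign changed without WT 1, 0 genes called each time, and 751 to 2514 genes with an unadjusted p under 0.05, against 1202 with all libraries; the lowest counts were without shDNAJB1 2 (751) and shDNAJB1 3 (757) and the highest without shDNAJB1 1 (2514). Without WT 1 the sign also changed for Sesn1 (0.03487), Sesn2 (0.04618) and Trp53inp1 (-0.01721), and without shDNAJB1 1 for Mdm2 (-0.09175) and Sesn2 (0.005155); the ranges over single left-out libraries were -0.09175 to 0.1219 for Mdm2, -0.08881 to 0.03487 for Sesn1, -0.09567 to 0.04618 for Sesn2 and -0.01721 to 0.1595 for Trp53inp1. Sesn2 was 0.000785 with the strict filter, under which Bbc3 gave no value. Without both WT 1 and shDNAJB1 3, Sesn1 was 0.004968 and 687 genes had an unadjusted p under 0.05. With the oligodendrocyte covariate Bbc3 was -0.2902 and Phlda3 0.01087. With the endothelial covariate Mdm2 was -0.06815 and Sesn2 0.01567, 2263 genes had an unadjusted p under 0.05, and 4 passed by edgeR, namely Rprm, Spp1, Grm2 and C1ql2. By the Wald test of DESeq2, 35 genes passed (13 higher, 22 lower). For all of these the cause was not tested. After centring within each group, libraries with the same replicate number had r across genes of 0.04, -0.02 and 0.08. Those with different numbers ran from -0.13 to 0.08. No pairing by number was seen, but 3 libraries per group are too few to show that there is none. With the replicate block Cdkn1a was 0.681, Dnajb1 -0.08918, 0 genes passed and 1458 had an unadjusted p under 0.05. Counting error was largest for Bbc3 among the members, and its share in the SE was not tested.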
